A study of Rattus norvegicus with 56 samples.

Results

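H3K9ac peaks were compared in the injured brain of old rats that had received plasma from young or from old donors. Every rat had an intracerebral haemorrhage, which is bleeding inside the brain, and the tissue was ipsilateral brain, the side of the bleed. The recipients were 21 months old by their sample labels, while the series text gives 22 months for its old rats. The plasma came from 3-month or 22-month rats, called young plasma and old plasma here. The labels do not give the dose, the route, the number of rats or whether a library stands for 1 animal. Each group had 1 ChIP library and 1 input library. The members were all peaks of the 2 lists the authors deposited for these groups, 50651 with young plasma and 123863 with old plasma, or 174514 of the 1619269 peaks in the 16 lists of the series. Untreated lists for comparison came from ipsilateral and contralateral brain of rats with the haemorrhage and no plasma, at 13 and 21 months, each from 2 ChIP libraries pooled by the authors.

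H3K9ac is acetylation of lysine 9 of histone H3. It marks active promoters and many active enhancers, is placed by acetyltransferases and removed by histone deacetylases, and widens around strongly transcribed genes. H3K4me3, trimethylation of lysine 4, sits at promoters that are active or poised, so its peaks serve as a map of promoter-type chromatin. H3K27me3 is the repressive mark of Polycomb complexes, and promoters that carry it together with H3K4me3 are called bivalent. A peak was called near H3K4me3 when it lay within 2 kb of an H3K4me3 peak of untreated 21-month ipsilateral tissue (30356 peaks), and away from H3K4me3 otherwise. The series has no H3K4me3 library of the plasma groups, so the classes rest on untreated tissue. Peaks of the plasma lists that overlapped each other by at least 1 bp were called shared.

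The libraries behind both lists were nearly equally deep. The peak caller kept 57426239 ChIP tags with young plasma and 56130825 with old plasma, a ratio of 1.02, with 30% duplicates in each. Input tags kept were 52175480 and 45651518, a ratio of 1.14. The old-plasma list nevertheless held 2.45 times as many peaks and covered 84.0 Mb against 36.3 Mb. With 1 library per group there is no spread between replicates and no test. A difference between the plasmas cannot be told apart from a difference between animals, dissections or immunoprecipitations. In bulk tissue a mark in fewer cells and less of it per cell cannot be told apart either. Intervals below are 95% Wilson intervals over peaks, which cover counting error only. The fold of a peak is the authors' fold enrichment over the local background, not corrected between lists.

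Near H3K4me3 most young-plasma peaks, and a smaller majority of old-plasma peaks, were shared. Of 26461 young-plasma peaks near H3K4me3, 23785 were shared, 89.9% (interval 89.5% to 90.2%), and 2676 were found with young plasma alone. Of 35361 old-plasma peaks in this class, 20744 were shared, 58.7% (interval 58.1% to 59.2%), and 14617 had no young-plasma partner. Over both classes, 36.8% of all young-plasma peaks and 76.8% of all old-plasma peaks had no partner, against 10.1% and 41.3% of those near H3K4me3. Joined into regions, the class gave 37144 stretches with a peak in at least 1 list, and 19851 of them (53.4%) held a peak with both plasmas.

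Away from H3K4me3 the lists were mostly different. The young-plasma list had 24190 such peaks, 47.8% of its peaks, and the old-plasma list 88502, or 71.5%. The ratio of old to young plasma was 3.66 in this class and 1.34 near H3K4me3, so most of the longer list's surplus lay away from promoter-type chromatin. Only 8250 young-plasma peaks, 34.1% (interval 33.5% to 34.7%), and 8043 old-plasma peaks, 9.09% (interval 8.90% to 9.28%), were shared. Alone with young plasma were 15940 peaks, and alone with old plasma 80459. Of 104088 joined regions, 7689 (7.39%) held a peak with both plasmas.

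The same split by class appeared when equal numbers of peaks were entered from both lists. The 50651 old-plasma peaks of highest -log10 q-value were set against all young-plasma peaks, which moved the lowest -log10 q-value of the old-plasma list to 5.26 while that of the young-plasma list was 1.31. Peaks near H3K4me3 then numbered 26461 with young and 24839 with old plasma, a ratio of 0.939, and away peaks 24190 and 25812, a ratio of 1.07. Near H3K4me3, 84.1% of young-plasma and 75.5% of old-plasma peaks were shared. Away from it, 17.2% and 14.8% were shared, against whole lists in which 47.8% of young-plasma and 55.4% of old-plasma peaks had no partner. With equal numbers entered, the classes thus held similar numbers of peaks with both plasmas, and sharing away from H3K4me3 was still low. The old-plasma peaks were longer and covered more sequence, 38.0 Mb against 26.9 Mb near H3K4me3 and 17.2 Mb against 9.38 Mb away from it.

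**Figure D1:**
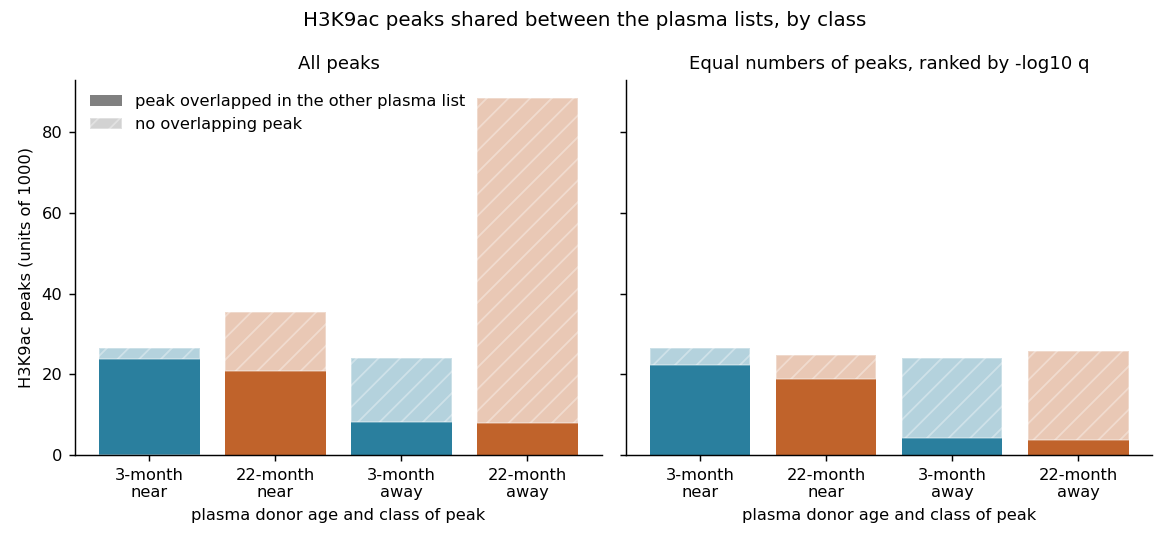
Number of H3K9ac peaks (axis in units of 1000) for each plasma donor age and class, near (within 2 kb of an untreated H3K4me3 peak) or away, for all peaks on the left and for equal numbers of peaks on the right. Solid bars are peaks overlapped in the other plasma list and hatched bars are peaks that are not. With all peaks the hatched old-plasma bar away from H3K4me3 stands for 80459 peaks, and with equal numbers the away bars are of similar height, with 4161 and 3817 shared peaks at their base.

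The strongest peaks of both lists lay near H3K4me3 and were nearly all shared. Among the first 5000 peaks of each list by q-value every peak was near H3K4me3 and had a partner somewhere in the other list. Of the first 10000, 17 young-plasma peaks and 5 old-plasma peaks lay away from H3K4me3. Among the 9983 and 9995 that lay near it, 4 and 11 had no partner of any rank. The order of the strongest peaks differed more than their presence did, since 342 of the first 1000 peaks of each list met a peak of the other list's first 1000. By 20000 peaks, 91.0% of young-plasma and 81.3% of old-plasma peaks near H3K4me3 met a peak of the other list's first 20000, against 9.69% and 9.38% away from it.

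Sharing was highest among peaks of high q-value in both classes, and in each band it was higher near H3K4me3 than away from it. With a -log10 q-value of 20 or more, 9587 of 9591 young-plasma peaks and 13120 of 13305 old-plasma peaks near H3K4me3 were shared. Between 10 and 20 the shares near H3K4me3 were 98.2% and 69.3%. Away from H3K4me3 in that band they were 66.5% of 627 young-plasma peaks and 29.1% of 3875 old-plasma peaks. In the band from 3 to 5, 72.5% and 20.2% were shared near H3K4me3 and 30.0% and 7.21% away from it. Below that the young-plasma shares did not fall steadily. They were 70.1% near and 30.6% away from 2 to 3, and 74.1% and 34.2% under 2.

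**Figure D2:**
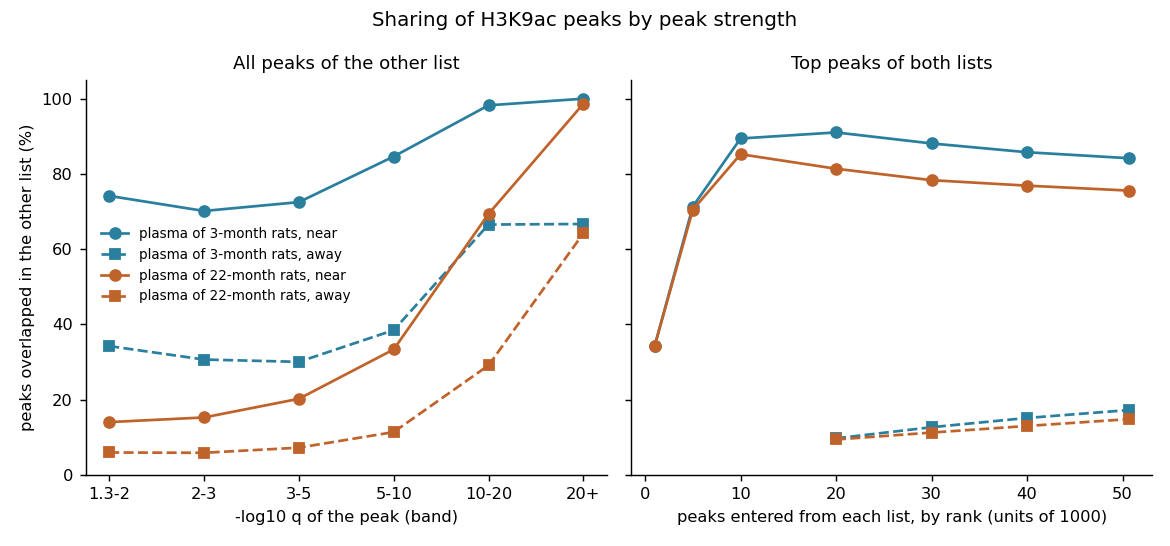
Percentage of H3K9ac peaks overlapped in the other plasma list, by band of the peak's -log10 q-value against all peaks of the other list (left) and by the number of top-ranked peaks entered from both lists (right, points with under 20 peaks left out). Solid lines with circles are peaks near H3K4me3 and dashed lines with squares peaks away from it. In every band and at every rank shown each list's near line lies above its away line.

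The limit of 2 kb did not fall on a step. Young-plasma peaks that overlapped an H3K4me3 peak were shared in 97.0% of 21709 cases, and those up to 1 kb from one in 62.6%. Just inside the limit, from 1 to 2 kb, 49.3% of 1876 peaks were shared, and just outside it, from 2 to 3 kb, 44.7% of 1407. The share went down to 32.3% at 10 to 100 kb and 23.6% beyond 100 kb. In the old-plasma list it was 79.8% of 23258 overlapping peaks, 14.3% just inside the limit, 11.8% just outside it and 7.62% beyond 100 kb. The largest step between neighbouring distance bands in either list came between overlapping peaks and those up to 1 kb away, not at the limit.

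Seen from the H3K4me3 peaks, 21088 of 30356 (69.5%) had H3K9ac within 2 kb with both plasmas. H3K9ac was there with old plasma alone at 3774 (12.4%), with young plasma alone at 372 (1.23%) and with neither at 5122 (16.9%). The first set were strong H3K4me3 peaks, with a median fold of 9.39 and a median length of 1210.5 bp. The others were weak and short, with median folds of 3.38, 3.37 and 3.23. The set with H3K9ac under old plasma alone also overlapped H3K27me3 of untreated 21-month ipsilateral tissue most often, at 54.8%, against 25.7% of the set with both plasmas, 15.6% with young plasma alone and 20.3% with neither. With equal numbers of plasma peaks these shares were 55.6%, 25.7%, 20.9% and 26.0%, and the sets held 2684, 20517, 943 and 6212 peaks. H3K4me3 peaks that also carry H3K27me3 have the pattern called bivalent, although in bulk tissue the marks may lie in different cells.

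Shared peaks near H3K4me3 were long, and plasma-only peaks were short in both classes. Near H3K4me3 the median length was 859 bp for shared and 327 bp for unshared peaks with young plasma, and 1470.5 bp and 413 bp with old plasma. A length of at least 1 kb was reached by 43.3% of shared and 1.38% of unshared young-plasma peaks, and by 68.5% and 9.31% of old-plasma peaks. Away from H3K4me3 the medians lay closer together, at 371 and 312 bp with young plasma and 501 and 357 bp with old plasma. A long peak has more room to meet another, so these lengths are not independent of the sharing. Within the joined regions that both plasmas marked near H3K4me3, the young-plasma signal alone was split into several peaks in 3227 and the old-plasma signal alone in 627.

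The widest peaks near H3K4me3 lay at one place in both lists. The young-plasma peak at chr1:221150774-221158641 spanned 7868 bp, and the old-plasma peak at chr1:221149324-221159650 spanned 10327 bp around it. The folds there were 7.97 with young and 10.5 with old plasma, and the untreated H3K9ac lists had folds of 10.1 to 21.4. The second widest old-plasma peak, chr1:221199741-221209993 with 10253 bp, lay near by and had folds of 3.99 and 8.40. The widest old-plasma peak away from H3K4me3, chr10:65026746-65037659, spanned 10914 bp with a fold of 7.12, where young plasma had a peak of fold 2.56. The next 2 in that class, chr3:3932797-3940790 with 7994 bp and chr3:12932751-12939027 with 6277 bp, had no young-plasma peak, while all 4 untreated H3K9ac lists had a peak at each. Young-plasma peaks away from H3K4me3 were at most 2677 bp long, at chr3:29974024-29976700, where the folds were 6.44 and 5.75.

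In rank by fold, shared and unshared peaks stood in opposite order in 1 of the 4 comparisons. A percentile of 100 is the highest fold of a list, and percentiles were taken over each whole list. Near H3K4me3 the median percentile was 66.6 for shared and 46.2 for unshared young-plasma peaks, and 91.5 and 49.98 for old-plasma peaks. Away from H3K4me3 old-plasma peaks kept that order, with 55.2 and 40.7. Young-plasma peaks reversed it: the shared ones had a median percentile of 31.2 and the unshared ones 45.2, with median folds of 2.96 and 3.26. Their median -log10 q-values went the other way, 4.46 for shared and 3.86 for unshared peaks. With equal numbers the reversal was still there, at 23.6 and 44.1. Folds above the lowest 90% of a list were found at 33 near (1.23%) and 48 away (0.301%) of the unshared young-plasma peaks. With old plasma they were found at 180 near (1.23%) and 67 away (0.0833%). Among shared peaks the shares were 20.6% near and 1.07% away with young plasma, and 58.0% and 1.24% with old plasma. Such folds were thus rare in every set except the shared peaks near H3K4me3.

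**Figure D3:**
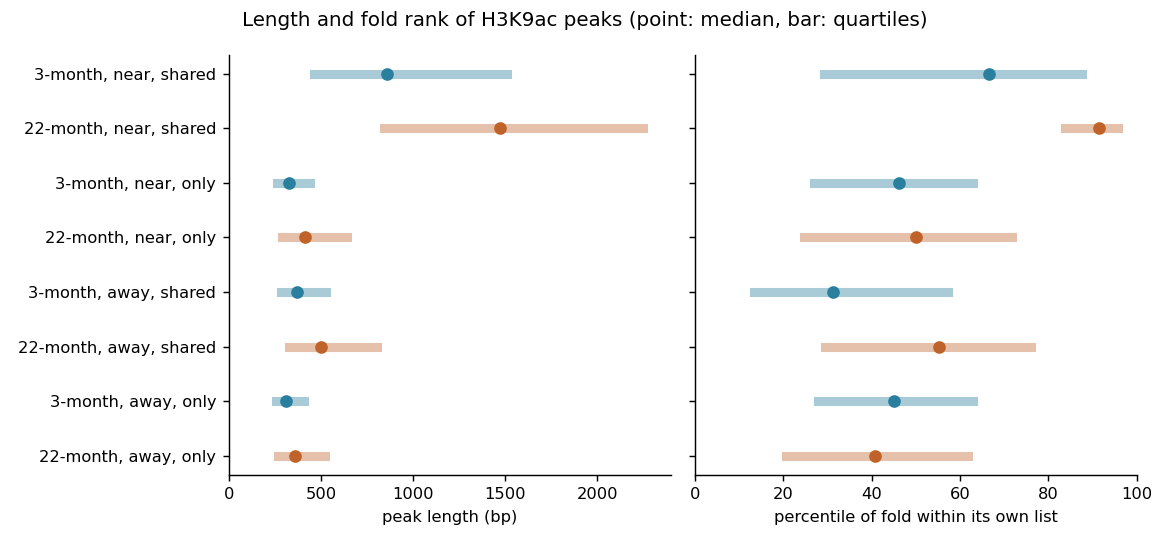
Peak length in bp (left) and percentile of the fold within the peak's own list (right) for 8 sets of H3K9ac peaks given by plasma donor age, class and sharing. Points are medians and bars run from the lower to the upper quartile over peaks. Shared old-plasma peaks near H3K4me3 stand apart with medians of 1470.5 bp and 91.5, and among young-plasma peaks away from H3K4me3 the unshared median percentile of 45.2 exceeds the shared one of 31.2.

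Where both plasmas marked a region, the ranks went together near H3K4me3 and not away from it. Over the 19851 regions near H3K4me3 Spearman's rho between the fold percentiles was 0.594, and over the 7689 away regions it was -0.14. With equal numbers it was 0.589 over 18353 and -0.05 over 3737 regions. These are descriptions across regions of the same libraries, and being shared limits the range of weak peaks. The summits of the partners lay a median 83 bp apart near H3K4me3, with 73.8% within 200 bp, and 152 bp apart away from it, with 60.2%. In all these values a region was represented by its strongest peak from each list. Median folds were 4.13 with young and 8.15 with old plasma near H3K4me3, and 3.00 and 3.51 away from it. The whole lists, over every peak, had median folds of 3.39 with young and 3.37 with old plasma. Unshared away peaks made up 31.5% of the young-plasma and 65.0% of the old-plasma list, so these medians do not show a like scale of folds.

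The strongest shared regions carried high folds with both plasmas. Near H3K4me3 the first, chr8:90501890-90504411, had a fold of 14.0 with young and 24.1 with old plasma, and 5.94 to 28.5 in the untreated H3K9ac lists. At chr14:106128906-106130566 the folds were 13.8 and 16.4, and at chr17:24103963-24104877 they were 14.4 and 13.6. Away from H3K4me3 the strongest, chr1:266705168-266707161, had 6.76 and 7.78, followed by chr6:52222284-52223654 with 6.16 and 6.17. All 4 untreated lists had a peak at each of these 5 regions.

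Some regions stood near opposite ends of the lists. Ranks from lists of different lengths show no change by themselves, so these are given as values. At chr7:11354585-11358256, near H3K4me3, the fold was 1.93 with young plasma, at percentile 1.04, and 11.9 with old plasma, at percentile 96.3, and the untreated lists had 5.35 to 10.8. At chr1:281947236-281948032, away from H3K4me3, it was 1.95 and 9.45, with no peak in any untreated H3K9ac list. The opposite order was found at chr6:89279303-89280117, near H3K4me3, with 6.43 and 2.13, and at chr1:31548988-31550146, away from it, with 6.93 and 2.21. At this last region the untreated 21-month folds were 3.10 in ipsilateral and 8.33 in contralateral tissue.

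The strongest young-plasma peaks without an old-plasma partner near H3K4me3 included a pair of neighbours on chromosome 1. The peak at chr1:39255458-39256726 had a fold of 8.50, and that at chr1:39271495-39272222 a fold of 8.45. The nearest old-plasma peaks were 460 and 444 kb away. Both overlapped weak H3K4me3 peaks, and both overlapped H3K27me3 peaks of the plasma groups, with folds of 5.29 with young and 6.72 with old plasma at the first and 6.77 and 17.8 at the second, but no untreated 21-month H3K27me3 peak. An untreated H3K9ac peak was found at the first alone, contralateral at 21 months with a fold of 2.59. Ranked next were chr2:180935216-180935931 with a fold of 8.11 and chr17:44758745-44759082 with 6.76, and each had a peak in all 4 untreated H3K9ac lists and an old-plasma peak within 1 kb. After them, chr17:84253078-84253525 with 6.60, overlapped an untreated peak in 21-month contralateral tissue, fold 3.85, and in no other untreated H3K9ac list.

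The strongest old-plasma peaks without a young-plasma partner near H3K4me3 had higher folds but lower ranks in their own list. The first, chr20:2706413-2707271, had a fold of 13.6 at percentile 97.8, where the first with young plasma stood at 99.2. It had an H3K4me3 fold of 8.01, and 1 of the 4 untreated H3K9ac lists had a peak there, 13-month contralateral with 3.60. The next 4 were chr1:266272893-266273950 with 10.8, chr10:106379699-106380814 with 10.1, chr10:103307684-103308532 with 9.74 and chr13:71657307-71658455 with 9.72. Each of these 4 overlapped a peak in all 4 untreated H3K9ac lists. The last 3 also overlapped untreated 21-month H3K27me3, with ipsilateral folds of 5.74, 4.23 and 4.44.

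Away from H3K4me3 the top unshared peaks differed in whether untreated tissue had them. The first 3 with young plasma, chr1:181197488-181197823 with a fold of 8.21, chrX:158951242-158951548 with 6.76 and chr17:11801058-11801341 with 6.60, overlapped no untreated H3K9ac peak. Of these, the peaks on chromosomes 1 and 17 did overlap H3K27me3 in both plasma groups. Ranked after them, chr3:133237451-133238254 with 6.60 and chr2:86661042-86661702 with 6.43, had untreated 21-month folds of 5.06 and 2.697 in ipsilateral and 6.27 and 6.27 in contralateral tissue. With old plasma the first, chr20:132270-132823 with 10.6, overlapped an untreated peak in 13-month contralateral tissue alone. The next, chr2:188565994-188567882 with 9.47, chr10:15072692-15073383 with 9.31 and chr12:38001768-38004157 with 9.10, had a peak in all 4 untreated lists. The last, chr1:218068115-218069034 with 9.07, had one in all but the 13-month ipsilateral list.

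All unshared peaks in the highest 10% of their list by fold were also set against the untreated lists. Of 180 with old plasma near H3K4me3, 178 overlapped an untreated H3K9ac peak, and of 67 away from it, all 67 did. With young plasma 26 of 33 near H3K4me3 and 31 of 48 away from it did. The same share over all unshared peaks was not computed, so these counts are not read as a trait of strong peaks. Of all unshared young-plasma peaks, 35.7% near and 51.5% away met no peak of either 21-month list. With old plasma 35.6% and 54.7% met none. Other shares over all unshared peaks are given for single lists. The 21-month ipsilateral list met 12 of the 33, 14 of the 48, 173 of the 180 and 64 of the 67. Over all unshared peaks of these sets it met 17.9%, 11.04%, 50.3% and 33.4%. The contralateral list met 26, 27, 161 and 60 of them, and 60.8%, 45.1%, 43.6% and 27.2% of all. H3K27me3 peaks of both plasma groups were found at 7 of the 33 and 7 of the 48, and at 22 of the 180 and 0 of the 67 with old plasma. Untreated H3K27me3 peaks were found at 6 of the 33 and 8 of the 48, and at 109 of the 180 and 30 of the 67. These H3K27me3 counts are given without the same shares over all unshared peaks, so they are not read as a trait of strong peaks.

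Untreated 21-month tissue gave a contrast by side. Young-plasma peaks without an old-plasma partner overlapped the contralateral list far more than the ipsilateral list, although their tissue is labelled ipsilateral. Away from H3K4me3, 45.1% overlapped a contralateral and 11.04% an ipsilateral H3K9ac peak, and near it 60.8% and 17.9%. Old-plasma peaks without a young-plasma partner were overlapped more often on the ipsilateral side, 33.4% against 27.2% away from H3K4me3 and 50.3% against 43.6% near it. Shared peaks away from H3K4me3 overlapped the contralateral list in 79.3% with young and 79.6% with old plasma and the ipsilateral list in 53.3% and 54.1%.

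Taken exclusively, 5966 of the 15940 unshared young-plasma peaks in the away class (37.4%) met a contralateral peak alone, 531 (3.33%) an ipsilateral peak alone, 1228 (7.70%) both and 8215 (51.5%) neither. For the 80459 unshared old-plasma peaks the numbers were 9549 (11.9%), 14522 (18.0%), 12340 (15.3%) and 44048 (54.7%). The contralateral list was longer, 120348 against 102607 peaks, and came from 99213634 against 66910243 ChIP tags. Cut to the 69557 peaks of highest q-value each, the contralateral list met 27.4% and the ipsilateral list 6.39% of the unshared young-plasma peaks in the away class, and 16.3% and 23.0% of the old-plasma ones. At 13 months the values for unshared young-plasma peaks of the away class lay close together with uncut lists, 13.0% contralateral and 10.9% ipsilateral. With the contralateral list cut to 69557 peaks, the length of the ipsilateral one, they were 8.72% and 10.9%, the opposite order. These lists had 55% and 82% duplicate ChIP tags. The part of depth in these overlaps was not tested.

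In the other direction, 48.6% of untreated 21-month ipsilateral peaks away from H3K4me3 were found with old plasma and 9.06% with young plasma. Of contralateral peaks 35.1% and 16.3% were found. With equal numbers of plasma peaks the old-plasma shares were 24.8% of ipsilateral and 17.1% of contralateral peaks. Near H3K4me3, with all plasma peaks, the ipsilateral shares were 86.4% with old and 62.3% with young plasma, and the contralateral shares 80.9% and 63.8%. With equal numbers the old-plasma shares near H3K4me3 were 76.8% of ipsilateral and 72.0% of contralateral peaks. At equal numbers, then, young and old plasma held similar shares of the contralateral away peaks, and the old-plasma list held more of the ipsilateral ones. The old-plasma away peaks still covered more sequence, 17.2 Mb against 9.38 Mb, and so had more room to meet an untreated peak.

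**Figure D4:**
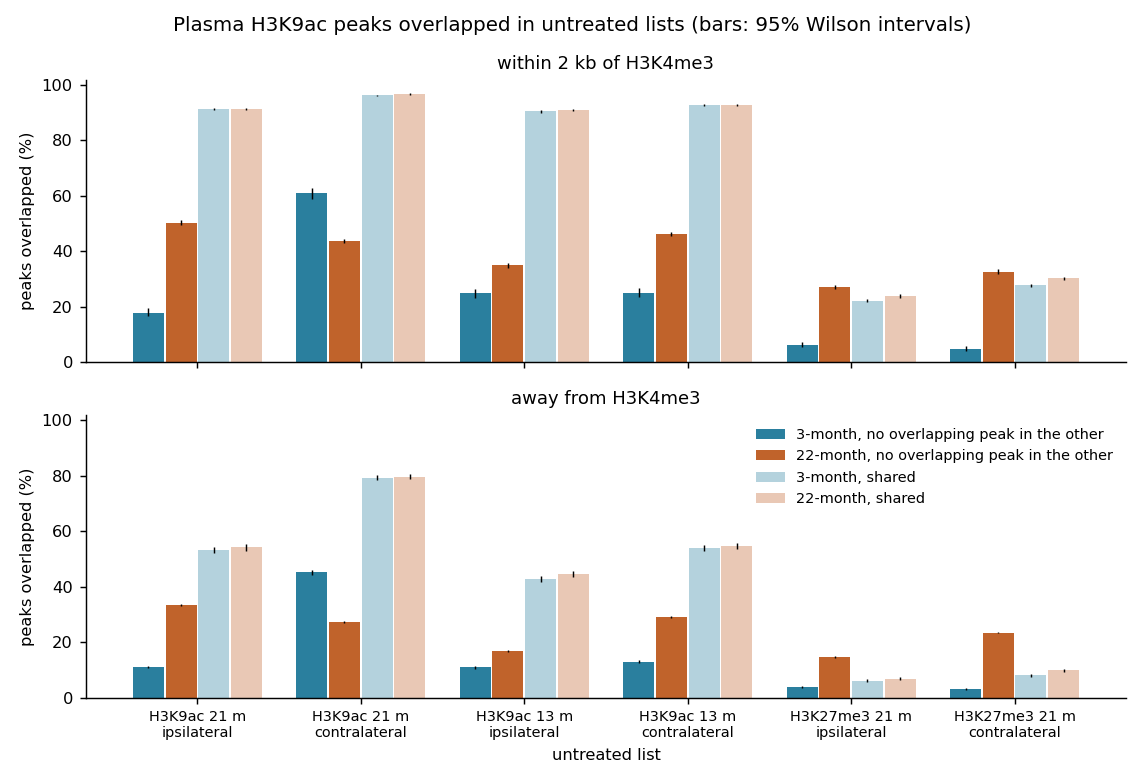
Percentage of plasma H3K9ac peaks overlapped by a peak of 6 untreated lists (H3K9ac at 21 and 13 months, H3K27me3 at 21 months, both sides), for peaks near H3K4me3 (top) and away from it (bottom). Dark bars are peaks without a partner in the other plasma list, pale bars are shared peaks, and lines are 95% Wilson intervals over peaks. Away from H3K4me3 the dark young-plasma bar is 45.1% for the 21-month contralateral and 11.04% for the ipsilateral H3K9ac list, and the old-plasma bar is 27.2% and 33.4%.

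Overlap with H3K27me3 of untreated 21-month tissue was higher at peaks found with old plasma alone, and other H3K27me3 lists did not all give that order. Near H3K4me3, 27.1% of them overlapped untreated 21-month ipsilateral H3K27me3, against 6.17% of peaks found with young plasma alone and 22.2% to 23.8% of shared peaks. Away from it the shares were 14.6%, 3.73% and 6.08% to 6.84%. Contralateral H3K27me3 gave 32.6% and 4.82% near H3K4me3 and 23.4% and 3.10% away from it. The H3K27me3 lists of the plasma groups were much shorter, 37241 and 51178 peaks against 300668. Near H3K4me3 the young-plasma H3K27me3 list overlapped 9.64% of peaks found with old plasma alone, 4.60% of those with young plasma alone and 9.32% to 10.4% of shared peaks. The old-plasma H3K27me3 list overlapped 7.79%, 5.27% and 6.10% to 7.29%. In the away class it overlapped more of the peaks found with young plasma alone, 1.74% (interval 1.55% to 1.96%) against 0.8004% (interval 0.741% to 0.864%), and the young-plasma H3K27me3 list overlapped 1.07% and 1.31%. At 13 months, near H3K4me3, peaks found with old plasma alone overlapped H3K27me3 in 17.1% ipsilateral and 13.9% contralateral. These lay below the 17.6% to 18.9% and 17.1% to 18.5% of shared peaks, and above the 5.94% and 3.44% with young plasma alone. Away from H3K4me3 the 21-month order was also found at 13 months. There the ipsilateral list gave 4.62% with old plasma alone, 2.31% with young plasma alone and 2.91% to 3.26% of shared peaks. The contralateral list gave 3.73%, 0.847% and 1.84% to 2.09%.

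On the chromosomes, peaks near H3K4me3 were spread alike and away peaks were not. Over 20 autosomes and X, the ratio of old-plasma to young-plasma peaks near H3K4me3 ran from 1.15 on X to 1.58 on chromosome 12. Away from H3K4me3 it ran from 2.03 on chromosome 2, with 4536 and 2234 peaks, to 9.99 on chromosome 12, with 3828 and 383. Chromosomes 20 and 19 followed with ratios of 6.26 and 6.17. Chromosome 12 held 4.33% of old-plasma and 1.58% of young-plasma away peaks, and chromosome 2 held 5.13% and 9.24%. With equal numbers the away ratio was 3.19 on chromosome 12, 0.55 on chromosome 2 and 0.297 on X, where 30 and 101 peaks lay. Chromosome Y held no away peak in either list.

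Sharing away from H3K4me3 also differed between chromosomes. On chromosome 12, 41.3% of young-plasma away peaks had no partner, the lowest of the 21 chromosomes, against 94.4% of old-plasma away peaks, the highest. On chromosome 2, which had the lowest ratio, these were 70.1% and 85.6%, and on X, next in the ratio, 77.2% and 90.7%. With equal numbers the chromosome 12 shares were 62.1% and 88.9%, still the lowest and the highest. Such shares are not independent of the ratio, since more peaks in 1 list offer more partners to the other. The away ratio went with the density of H3K4me3 peaks on the chromosome, a rough measure of its gene content, with Spearman's rho of 0.818 over the 21 chromosomes and 0.848 with equal numbers. The ratio near H3K4me3 did so nearly as much, with rho of 0.777 and 0.818, although it varied less. H3K4me3 density was 15.8 per Mb on chromosome 12 and 8.99 on chromosome 2. These rho values are descriptions over chromosomes of the same 2 libraries.

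The untreated lists showed 2 like spreads. In 21-month tissue chromosome 12 held 4.34% of ipsilateral and 2.30% of contralateral away peaks, and chromosome 2 held 4.96% and 8.06%. The mean absolute difference in chromosome share from the young-plasma list was 0.287 percentage points for the 21-month contralateral list and 1.02 for the ipsilateral list. From the old-plasma list it was 0.799 and 0.145 points. The 13-month lists lay nearer to the old-plasma list as well, at 0.293 points ipsilateral and 0.108 contralateral, against 0.695 and 0.924 from the young-plasma list. Between the plasma lists themselves it was 0.933 points.

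**Figure D5:**
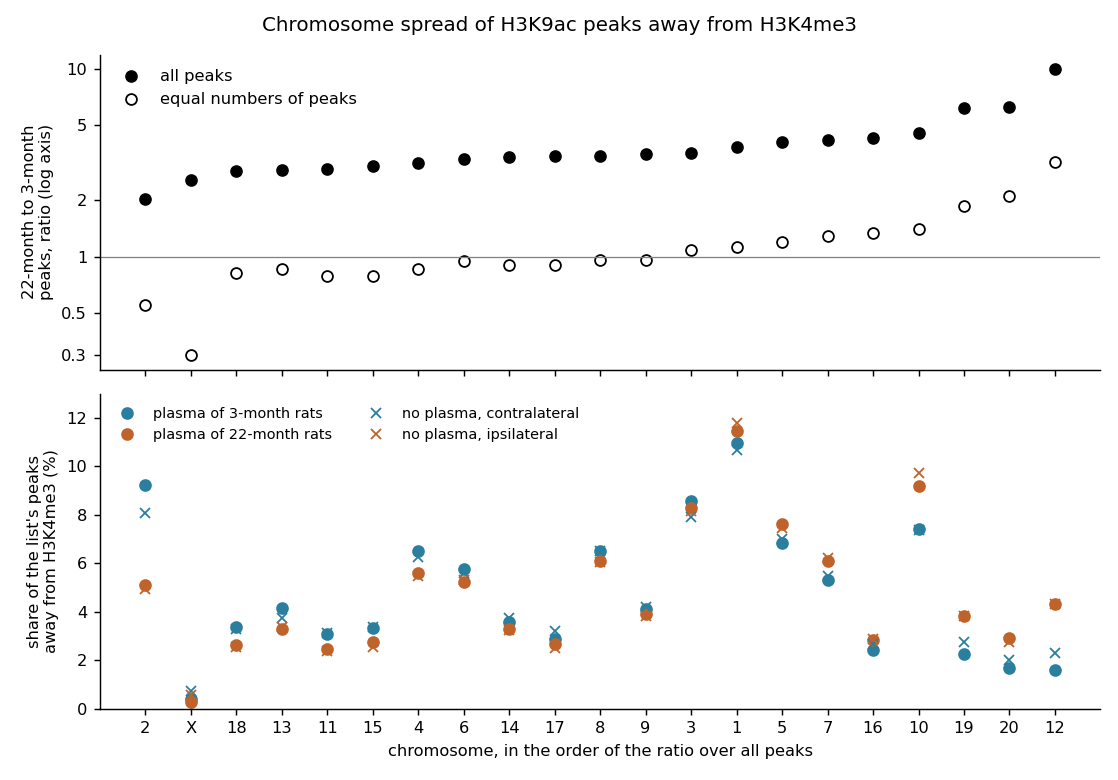
Top, ratio of old-plasma to young-plasma H3K9ac peaks away from H3K4me3 on each chromosome, on a log axis, for all peaks (filled) and equal numbers (open). Bottom, share of each list's away peaks on each chromosome, with circles for the plasma lists and crosses for the untreated 21-month lists. The ratio over all peaks runs from 2.03 on chromosome 2 to 9.99 on chromosome 12, where the old-plasma circle (4.33%) lies by the ipsilateral cross (4.34%).

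Near H3K4me3, peaks found with 1 plasma lay close to other peaks of their own list more often than shared peaks did, and away from it less often. Near H3K4me3, 62.9% of unshared young-plasma and 71.0% of unshared old-plasma peaks had another peak of the same list within 1 kb, against 51.0% and 56.9% of shared ones. Away from H3K4me3 the unshared shares were 23.5% and 44.0%, and the shared ones 28.8% and 48.6%. Having another peak of the list close by was thus common among unshared peaks near H3K4me3, and with young plasma uncommon away from it. When a partner within 500 bp was allowed in place of an overlap, 1442 of the 2676 unshared young-plasma peaks near H3K4me3 were still without one.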

How the data were processed

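ChIP-seq peak lists of 1 ChIP and 1 input library per plasma group were used, with untreated lists pooled from 2 of each. Cutadapt, Bowtie2 and HOMER are named in the submitters' processing notes. Peaks were called by the authors with MACS 2.1.1.20160309 at a q-value cutoff of 0.05, an effective genome of 2.7 Gb and a limit of 1 tag per position, as read per the file headers, and each list gives peak length. No source used here names the genome build, so coordinates are those of the deposited lists, 1-based. No annotation of that build was used, so genes were not assigned, planned gene lists and cell type markers were not applied, and no sequence is shown. The authors' pileup, a signal (coverage) value, was not used. The authors' fold enrichment, a ratio to local background, ranked peaks within a list. The deposited −log10 q-value set equal numbers (ties by fold, then position).

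Python 3.11.15 (numpy 2.4.6; pandas 2.3.3) was used for overlaps and scipy 1.17.1 for intervals, and overlaps were checked against bedtools on simulated data. Calls depend on depth: 57426239 (young plasma) and 56130825 ChIP tags were kept. Named regions, on chromosomes 1 to 20, X and Y, were per class the 5 strongest unshared and 3 widest peaks of each list, the 3 shared regions with the highest lower fold and the 3 with the largest percentile difference each way. The text gives the first of each set and most others. Members, lists and rules were chosen with earlier results of these data known. The alternatives were 13 planned settings and, after the data were seen, untreated lists of equal numbers.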

Additional observations from a re-analysis of the deposited data

How the results depend on the processing

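No paired analysis was possible because each plasma group has 1 library and no test was made, and leaving out a replicate was not possible either. Unshared peaks are given in the order young plasma near, old plasma near, young plasma away, old plasma away, 2676, 14617, 15940 and 80459 as reported. In this order they were 4196, 6076, 20029 and 21995 with equal numbers, and 3875, 7296, 20145 and 20497 with equal numbers within each class given. They were 1699, 8714, 6545 and 27165 with a −log10 q-value of at least 5, 984, 10817, 2943 and 12856 with a fold of at least 4 in both lists, and 447, 3570, 2131 and 10744 with that fold and no partner of any fold. A partner within 500 bp left 1442 unshared young-plasma peaks near H3K4me3. The near counts for young and old plasma were 648 and 4694 with H3K4me3 overlap in place of 2 kb, 5034 and 27194 within 5 kb, and 1728 and 8640 with peaks under 500 bp apart joined. Under these settings more peaks were unshared with old than with young plasma in each class given. This order is no separate support for a difference. With equal numbers within each class it only mirrors the shared counts, since a shared region can hold more young-plasma than old-plasma peaks. In the settings with unequal numbers the old-plasma list was the longer one.

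With equal numbers, median lengths near H3K4me3 were 913 (shared) and 349 bp (unshared) with young plasma and 1594 and 594 bp with old plasma. Away from it they were 320 bp for unshared young-plasma peaks and 711 and 505 bp for shared and unshared old-plasma peaks. Median fold percentiles became 69.5 for shared young-plasma peaks near H3K4me3, 23.6 and 44.1 for shared and unshared ones away, and for old plasma 81.4 and 39.8 near and 43.7 and 31.7 away. The old-plasma away peaks on chromosomes 12 and 2 became 4.73% and 4.77%. Unshared young-plasma away peaks overlapped the 21-month ipsilateral and contralateral lists in 16.1% and 51.0%, and old-plasma ones in 53.9% and 41.6%. With the untreated lists cut to equal numbers, a setting chosen after seeing the data, these were 6.39% and 27.4%, and 23.0% and 16.3%. The order of the sides was the same in each setting. Of 80 values recomputed, 47 moved, counts by over 1.5 times and other values beyond counting error. The other 33 stayed within those limits, which for counts are wider than counting error. The depth of 1 library per group limits all of them.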

Other observations

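H3K4me3 of untreated 21-month contralateral tissue, which took no part in the classes, was found at few peaks away from ipsilateral H3K4me3. It overlapped 9.85% of shared young-plasma and 10.6% of shared old-plasma peaks there, and 0.910% and 2.29% of the unshared ones. Near ipsilateral H3K4me3 it overlapped 90.3% and 90.6% of shared peaks, and 25.6% and 35.3% of unshared peaks with young and old plasma.

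Over the 19851 regions near H3K4me3 that both plasmas marked, the fold percentile was higher in the old-plasma list in 82.1%, with a median difference of 14.2 points. Over the 7689 away regions it was higher in 64.1%, with a median difference of 15.1 points. Since the lists differ in length, these values are no measure of change.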
